A study of Mus musculus with 12 samples.

Results

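Toll-like receptors are pattern receptors of innate immunity, and 10 mouse genes of this system were followed here: the receptors Tlr1, Tlr2, Tlr4, Tlr6, Tlr7, Tlr9 and Tlr13, and the co-receptors and relatives Cd14, Ly96 and Cd180. They were chosen by gene symbol, and all 10 were found among the 23764 gene identifiers of the deposited table. Expression had been measured by RNA sequencing in RAW264.7 cells, an immortalized Balb/c mouse line of monocyte and macrophage character. Every group received RANKL, a cytokine under which these cells can become osteoclasts. Vehicle groups had MEM-alpha medium and treatment groups had culture supernatant of the bacterium Lactobacillus reuteri, and RNA was harvested at day 1, day 3 or day 5, with 2 libraries in each of the 6 groups and 12 libraries in all. All libraries came from this single established line, and no primary osteoclast precursors were part of the comparison. The labels do not say whether the libraries of a group came from separate cultures, so the spread behind each p-value is one between libraries and may be technical.

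Toll-like receptors of the cell surface and those of endosomes sense different microbial products. At the surface, TLR2 pairs with TLR1 or TLR6 to bind bacterial lipopeptides, and TLR4 binds lipopolysaccharide together with the small secreted protein encoded by Ly96, with CD14 handing over the ligand. In endosomes, TLR7 senses single-stranded RNA, TLR9 senses unmethylated CpG DNA, and TLR13, which mice have and humans lack, senses bacterial ribosomal RNA. Cd180 encodes a surface relative of TLR4 that lacks the intracellular signalling domain. Ligand binding recruits adaptors such as MyD88 and leads to NF-kappaB and interferon-regulatory factor activity, and in macrophages to cytokine and chemokine production.

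The libraries were of 2 kinds. In replicate 2 of days 3 and 5 of both arms, nuclear protein-coding genes received 38.1% to 48.8% of reads, and these 4 are called low-mRNA libraries below. That share was 85.2% to 87.6% in the remaining 8. They held 8071160 to 10724569 recovered reads, and the others 13812078 to 16781080. Because low-mRNA libraries all carry replicate number 2, library kind and replicate number cannot be told apart at days 3 and 5. Differences are therefore given from a limma model of the other 8 libraries, which leaves 1 library per arm at days 3 and 5, so that its estimate of spread comes from the 4 libraries of day 1. The low-mRNA libraries are given beside it and in a comparison of their own. All 10 macrophage markers were detected in each of the 8 libraries, and all but Fcgr1, at 0 in 1 of them, in each low-mRNA library, with a summed normalized count of 87315 to 339209 in the 8 libraries and 25147 to 148672 in the low-mRNA libraries. Markers of B, T, dendritic, fibroblast, epithelial cells and neutrophils summed to 32.5 to 60.6 and 54.4 to 86.6 in the same order, over the 14 of 20 found in the table. Of these, Cd3d, Cd8a and Flt3 were at 0 in all 8 libraries.

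All 10 genes were expressed at day 1, and Cd14 led by a wide margin. Values below are normalized counts, that is, reads scaled to an equal total in every library. Per kilobase of exon, Cd14 stood at 4177 normalized counts in vehicle cells at day 1 (mean of 2 libraries, range 3820 to 4533). Tlr2 followed at 418 (407 to 429), then Cd180 at 345 (335 to 354) and Tlr13 at 341 (313 to 369), whose ranges overlapped. Next came Tlr7 at 211 (201 to 222) and Tlr4 at 207 (205 to 209), again overlapping, and Ly96 at 71.2 (66.8 to 75.7). At the low end stood Tlr6 at 33.1 (30.6 to 35.6), Tlr1 at 31.8 (30.6 to 33.0) and Tlr9 at 26.8 (22.9 to 30.7), of which Tlr9 overlapped with Tlr1 and with Tlr6 in range. Thus the shared surface subunit Tlr2 lay far above its partners Tlr1 and Tlr6 per length, and Ly96 lay below Tlr4. With coding length in place of exon length, Cd180 moved above Tlr2 and Tlr4 above Tlr7. Tlr1 and Tlr6 share 13.6% and 12.3% of their 50-base stretches with each other, so their reads may have been split between them and their values are uncertain. Tlr1 shared such stretches with 158 genes in all, most of them with Tlr6. Tlr2, Ly96, Cd14, Cd180, Tlr7, Tlr9 and Tlr13 shared no such stretch with another gene. Cd180 overlaps Mast4 on the opposite strand over 182 bases, 4.0% of its exons, and strand use in counting is not given in the sources used here.

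By day 5, Tlr13 and Tlr7 stood higher in the order per exon length. Per kilobase of exon, Tlr13 reached 678 and Tlr7 401 in the vehicle library with number 1, above Cd180 at 295. In the treated library of that day Tlr13 stood at 633 and Tlr7 at 552, next to Tlr2 at 586. Tlr9 stayed last in both. Per kilobase of coding length Tlr7 was below Cd180 at day 5, at 519.7 and 671 in vehicle and 715 and 814 in treated cells. These are single libraries, so the order at day 5 has no error of its own.

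**Figure D1:**
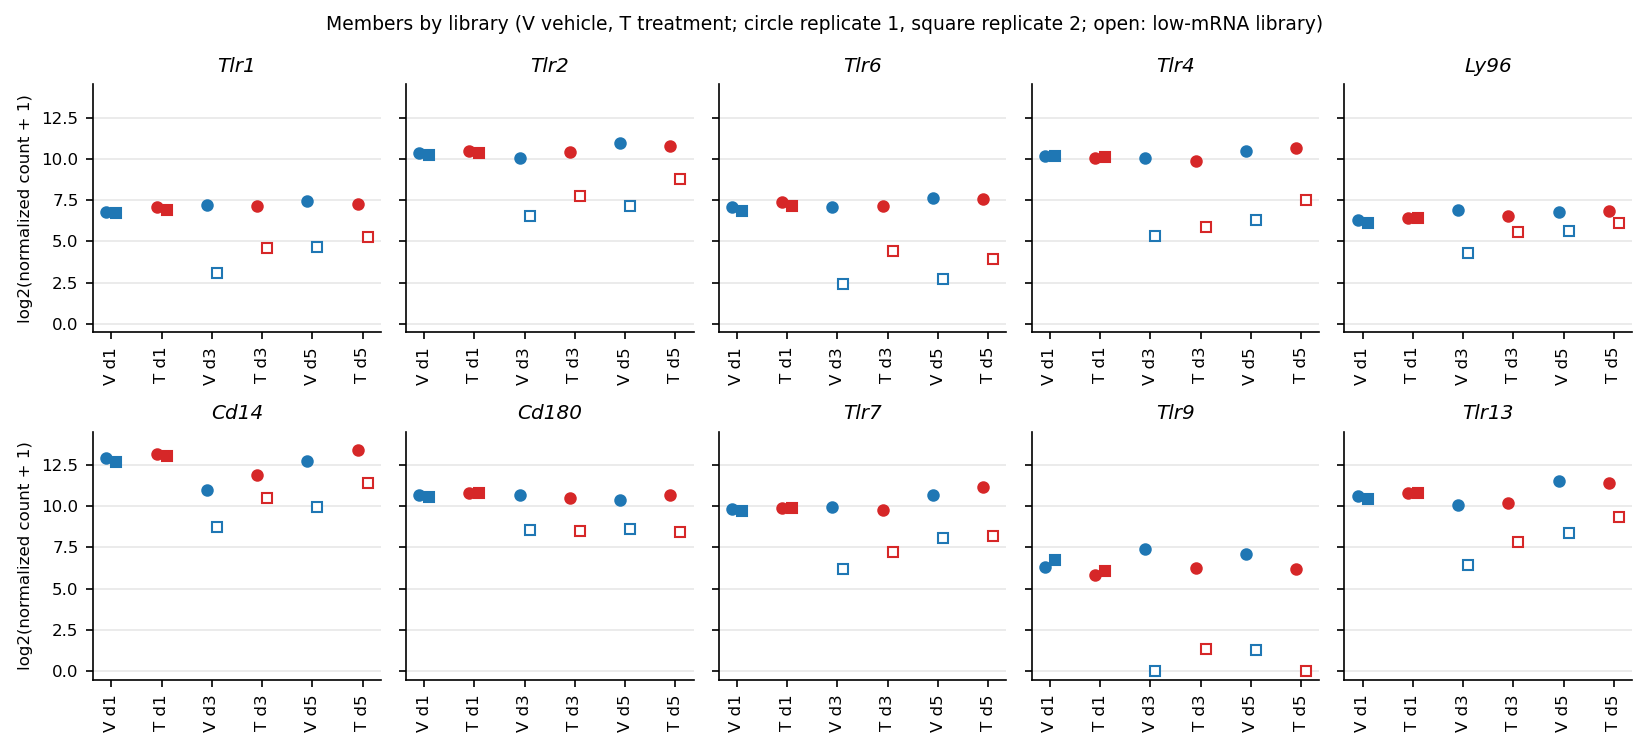
Normalized counts of the 10 genes in each of the 12 libraries, as log2(normalized count + 1), by arm and day. Filled symbols are the 8 libraries of the model and open symbols the 4 low-mRNA libraries, which lie lowest for every gene at days 3 and 5, from 0 for Tlr9 to 2642.7 normalized counts for Cd14.

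The question put by the design is whether the bacterial supernatant changed expression at each day. At day 1, none of the 10 genes passed a Benjamini-Hochberg adjusted p of 0.05 in limma, where 5.74% of the 14715 genes tested were called (3.12% higher and 2.62% lower), and 4 of the 10 had an unadjusted p under 0.05. At day 3 none of the 10 passed, against 0.116% of all genes, and again 4 had an unadjusted p under 0.05. Only Tlr7 passed at day 5, with 5.81% of all genes called (2.54% higher and 3.27% lower). Limma-voom on recovered reads called 3 members at day 1, where it called 2007 of the 14715 genes tested, 909 higher and 1098 lower. At days 3 and 5, with 1 library per arm, it also called more members and more of all genes than limma did. The 12-library fit with a term for library kind called 0 members at each day, where 0.0408%, 0.0680% and 0.408% of all genes were called (0, 4 and 2 members at an unadjusted p under 0.05). The members' median difference (log2, treatment minus vehicle) was 0.21 at day 1, -0.11 at day 3 and -0.01 at day 5, beside -0.04, -0.01 and -0.09 over all genes tested. No member passed the test of a treatment effect that differs between days, with limma adjusted p from 0.163 to 0.618 and 5 members at an unadjusted p under 0.05, where 0.102% of all genes were called. In bulk RNA, fewer cells of a type and less RNA per cell cannot be told apart.

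Cd14, which hands lipopolysaccharide and lipopeptides to the receptors, had the largest positive treatment difference of the 10 genes at days 3 and 5 in the 8 libraries. At day 1 its normalized counts were 7851 and 6617 in vehicle and 8943 and 8235 in treated libraries. At day 3 they were 1973 in vehicle and 3799 in treated cells, and 422 and 1416 in the low-mRNA pair. At day 5 they were 6795 and 10782, and 978 and 2643 in the low-mRNA pair. The treated library was the higher in 6 of 6 pairs of the same day and number. The share of all genes that did so was not taken, and at day 1 the number is not read as a pairing. At day 1 both treated libraries lay above both vehicle libraries, as they did for 21.4% of all genes tested. The arms overlapped at days 3 and 5, where the 2 kinds of library lie far apart. The log2 difference was 0.25 (SE 0.094, limma adjusted p = 0.183) at day 1, 0.95 (SE 0.133, limma adjusted p = 0.098) at day 3 and 0.67 (SE 0.133, limma adjusted p = 0.0549) at day 5. None of these passed. With all 12 libraries and a term for library kind the differences were 1.34 (SE 0.225, limma adjusted p = 0.0752) and 1.05 (limma adjusted p = 0.0812) at days 3 and 5, and limma-voom on recovered reads called Cd14 at both days over 8 libraries (limma-voom adjusted p = 0.00015 and 0.000346).

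The 6 pairs must be read beside the shift of all genes in the low-mRNA pairs. There, the median of all genes tested was 0.46 higher (log2) in the treated library at day 3 and 0.23 higher at day 5 under the deposited scaling, and 0.16 and -0.01 when scaled to nuclear protein-coding reads. Cd14 was higher by 1.74 and 1.43 in those 2 pairs, and remained higher in 6 of 6 pairs, by 0.19 to 1.44, on the second scaling.

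Tlr9, the CpG DNA receptor, lay on the other side. Its normalized counts at day 1 were 79.5 and 107 in vehicle libraries and 55.0 and 67.6 in treated ones. Tlr9 had both treated libraries below both vehicle libraries, as 33.4% of all genes tested had. At day 3 it had 166 in vehicle and 76.7 in treated cells, and at day 5 it had 136 and 72.5. Treated libraries were thus lower in each of these comparisons, as they were in 5 of 6 pairs over all 12 libraries, although the 2 low-mRNA pairs hold only 2 reads of Tlr9 in total. The differences of -0.59 (SE 0.202), -1.11 (SE 0.286) and -0.90 (SE 0.286) did not pass, with limma adjusted p of 0.155, 0.257 and 0.131. With all 12 libraries and a term for library kind the day 3 value turned to 0.13 (limma adjusted p = 0.909). Limma-voom on recovered reads called Tlr9 at days 3 and 5 over 8 libraries (limma-voom adjusted p = 0.0151 and 0.0268).

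Tlr7, the RNA receptor, was the only member called for treatment in the 8-library limma fit, at day 5. Its normalized count was 1637 in the vehicle library and 2252 in the treated library, and 266 and 289 in the low-mRNA pair. The treated library was higher in both pairs, by 0.46 and 0.12, but the second value turned to -0.13 when scaled to nuclear protein-coding reads. At day 1 it had 904 and 822 in vehicle and 927 and 949.6 in treated cells, and at day 3 it had 988 and 875. The day 5 difference was 0.46 (log2, SE 0.0872, limma adjusted p = 0.0497). This value sits at the threshold. Leaving out any 1 of the 4 day 1 libraries cannot test it. Such a fit has 1 residual degree of freedom, and called no gene of all tested for treatment at day 5. With all 12 libraries and a term for library kind the difference was 0.29 (limma adjusted p = 0.706).

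Tlr1, Tlr2, Tlr4 and Tlr6, the receptors of the surface, and Ly96 had small differences between arms in the 8 libraries and larger ones in the low-mRNA pairs. Tlr2 had 1294 and 1225 normalized counts in vehicle and 1432 and 1288 in treated libraries at day 1, where the arms overlapped. It had 1078 and 1345 at day 3 and 2028 and 1765 at day 5, so that the sign turned between days in this pair. With all 12 libraries and a term for library kind it did not turn, at 0.11, 0.77 and 0.69. Tlr4 had 1159.5 and 1141 in vehicle and 1048 and 1098 in treated libraries at day 1, the only member besides Tlr9 whose treated libraries both lay below. At day 3 Tlr4 had 1049 in vehicle and 939 in treated cells, and at day 5 it had 1435 and 1609. Differences of Tlr2 and Tlr4 lay between -0.20 and 0.32, and none passed in limma (adjusted p 0.208 to 0.443). For Tlr1, Tlr6 and the TLR4 partner Ly96, differences lay between -0.36 and 0.31 with limma adjusted p from 0.228 to 0.93. In the low-mRNA pairs, the treated library was higher for Tlr1 by 1.56 and 0.64 at days 3 and 5, for Tlr2 by 1.21 and 1.59, for Tlr6 by 1.99 and 1.19, for Tlr4 by 0.54 and 1.19 and for Ly96 by 1.22 and 0.51, each a single pair with no error, beside the medians of all genes given above.

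At day 1, Tlr1, Tlr6, Ly96, Cd14, Cd180, Tlr7 and Tlr13 had both treated libraries above both vehicle libraries, an ordering that 21.4% of all genes tested showed, and 33.4% showed the reverse. At days 3 and 5 the arms overlapped for all 10 genes when low-mRNA libraries were counted in. Of all genes, 4.46% and 1.45% had both treated libraries above or below at day 3, and 3.36% and 3.88% at day 5. Cd180 had 1597 and 1512 in vehicle and 1781 and 1771 in treated libraries at day 1. It had 1637 and 1439.9 at day 3, then 1331 and 1615 at day 5. Its differences were 0.19, -0.18 and 0.28 (limma adjusted p = 0.0848, 0.382 and 0.0767). Cd180 differed by -0.06 and -0.16 in the low-mRNA pairs of days 3 and 5, so the 2 pairs of day 5 went opposite ways, and the fit of 12 libraries with the term gave 0.06 at day 5. Tlr13, the ribosomal RNA sensor, had 1587 and 1349 in vehicle and 1800.3 and 1737 in treated libraries at day 1 (difference 0.27, SE 0.0844, limma adjusted p = 0.13). Its differences at days 3 and 5 were 0.11 and -0.10, and neither passed. The low-mRNA pairs of Tlr13 were higher in the treated library by 1.40 and 0.99, and 12 libraries with a term for library kind gave 0.75 and 0.45, which turns the sign at day 5 (limma adjusted p = 0.342 and 0.623).

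**Figure D2:**
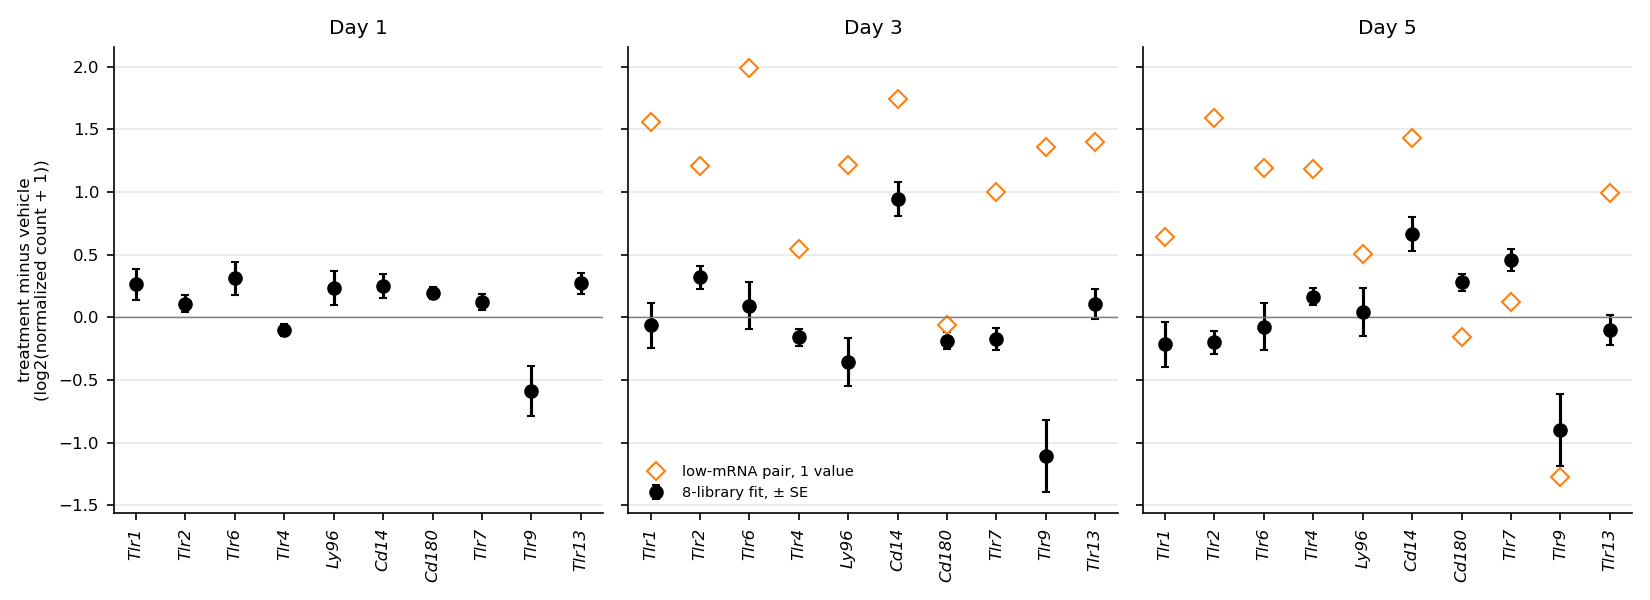
Treatment minus vehicle for each gene at days 1, 3 and 5 on the log2(normalized count + 1) scale. Black points are the 8-library fit with SE, and open diamonds the single low-mRNA pair of that day; Cd14 lies above 0 in every case, and the low-mRNA value of Tlr9 rests on 2 reads over both days.

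The pathway around the receptors was read from lists of partners, adaptors, brakes and response genes. Of 16 response genes tested, 12 rose and 0 fell with treatment at day 1, 2 rose at day 3 and 8 rose at day 5, where 3.12%, 0.116% and 2.54% of all genes tested were called higher, with median differences of 1.35, 1.45 and 1.48. Acod1, which makes itaconate in activated macrophages, had 219 and 186 normalized counts in vehicle and 1781 and 1744 in treated libraries at day 1. It rose by 3.12 (SE 0.0977, limma adjusted p = 0.00406), and by 3.70 at day 3 and 2.73 at day 5. Ptgs2, the inducible prostaglandin synthase, rose by 1.41, 3.47 and 4.09 at the same days. Rsad2, an interferon-induced antiviral gene, rose by 2.04 at day 1 and 2.41 at day 5. At day 1, 8 of the 10 receptor members were higher in treated cells, with a median of 0.21. They went both ways at days 3 and 5 around medians of -0.11 and -0.015, with Tlr9 at -1.11 and Cd14 at 0.95 at day 3. All 16 response genes were higher in treated cells at days 1 and 3 and 15 of 16 at day 5. This describes both lists, which were chosen with earlier results of these data known, and the difference between them was not tested.

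Among 23 adaptors and proximal kinases tested, 3 rose and 1 fell at day 1, 1 rose at day 3, and 1 rose and 2 fell at day 5. The shares of all genes called, in either direction, were 5.74%, 0.116% and 5.81% at these days, also for the lists that follow. The kinase gene Ikbke rose by 1.33 at day 1 and 1.99 at day 3. Irf7, an interferon-regulatory factor activated through TLR7 and TLR9, rose by 1.15 at day 1 and 1.65 at day 5, and Irak2 rose by 0.41 at day 1. Ikbkg fell by 0.35 at day 1, and Traf3 and Irf5 fell by 0.43 and 0.42 at day 5. Traf3 and Irf5 went the other way in the low-mRNA pair of day 5, at 102 and 964 in vehicle and 137 and 1044 in treated cells. Irf7 was higher in treated cells there too, at 55.1 and 107. Of 13 receptor partners and chaperones, 3 rose at day 1, all of them genes of lysosomal cathepsins that process endosomal receptors: Ctsl by 0.68, Ctsb by 0.58 and Ctss by 0.29. None of the 13 passed at day 3 in limma, with 5 at an unadjusted p under 0.05. At day 5 the chaperone gene Hsp90b1 rose by 0.71 and Ctsl by 0.67. Cd36 fell by 0.62, Slc15a4 by 0.49 and Ly86, the partner of Cd180, by 0.51. In the low-mRNA pair of day 5 Cd36 went the other way, at 1989 in vehicle and 3897 in treated cells, as did Slc15a4, at 348 and 438. Ly86 was lower in treated cells there too, at 154 and 149, and Hsp90b1 and Ctsl were higher. Of 11 brakes on the pathway, Tnfaip3 rose by 0.54 at day 1, none passed at day 3 in limma (2 at an unadjusted p under 0.05) and Inpp5d fell by 0.32 at day 5. The remaining receptors Tlr3 and Tlr8 did not pass at any day, and neither had an unadjusted p under 0.05. Tlr3 and Tlr8 were the 2 of 5 further receptors on the list found in the table.

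**Figure D3:**
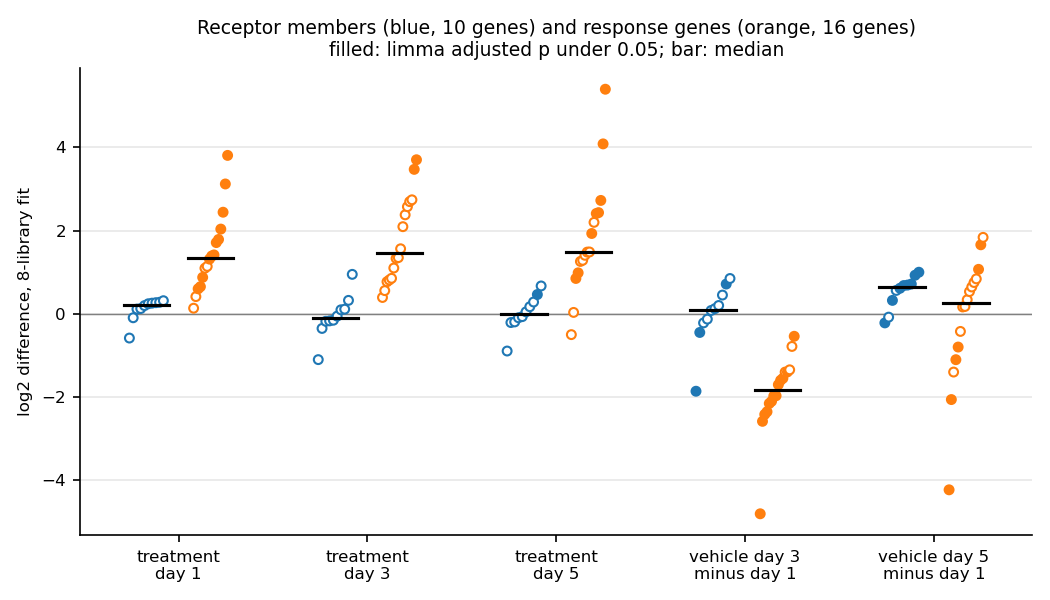
Log2 differences of the 10 receptor members (blue) and 16 response genes (orange) in the 8-library fit for 5 comparisons, with filled points for a limma adjusted p under 0.05 and bars for medians. The receptors' medians for treatment lie between -0.11 and 0.21, and those of the response genes between 1.35 and 1.48.

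Time under RANKL in vehicle cells was the second comparison. By day 3, Cd14 and Tlr13 fell and Ly96 rose, while 7 of the 10 genes did not pass. In all, 19.7% of genes tested were called at day 3, 9.69% higher and 10.0% lower. Cd14 went from 7851 and 6617 normalized counts at day 1 to 1973 at day 3. It fell by 1.87 (log2, SE 0.115, limma adjusted p = 0.00132), and was the single member still called with all 12 libraries and a term for library kind, at -2.07 (limma adjusted p = 0.00207), where 2.87% of all genes were called. Without vehicle day 1 replicate 1 the difference was -1.75, in a fit with 1 residual degree of freedom that called no gene of all tested. In the treated arm the library with number 1 at day 3 stood at -1.17 relative to the day 1 mean, a value with no error.

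Ly96 went from 77.2 and 68.2 to 120 normalized counts at day 3, a rise of 0.71 (SE 0.165, limma adjusted p = 0.0398). Tlr13 went from 1587 and 1349 to 1068, and fell by 0.45 (SE 0.103, limma adjusted p = 0.0381). Neither call held without any 1 of the 4 day 1 libraries, where 1 residual degree of freedom was left and fewer of all genes were called. Tlr9 stood at 166 at day 3 against 79.5 and 107 at day 1, a difference of 0.85 that did not pass (limma adjusted p = 0.0717). Over the same time the osteoclast markers moved up, with 5 of 8 tested rising and 0 falling. Their summed normalized count went from 2415 in vehicle day 1 replicate 1 to 11214 in vehicle day 3 replicate 1. The response list went the other way, with 13 of 16 falling and 0 rising, and Ptgs2 and Acod1 fell by 4.82 and 2.43. Cd14 thus fell at the day at which most response genes fell.

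By day 5, 7 members rose, 1 fell and 2 did not pass, where 29.4% of all genes were called, 14.4% higher and 15.0% lower. The members' median difference was 0.64, beside -0.003 over all genes tested. Tlr13 rose by 1.00 (SE 0.103, limma adjusted p = 0.00335), to 2919.7 normalized counts from 1587 and 1349. Tlr7 rose by 0.92 (SE 0.0755, limma adjusted p = 0.00196), to 1637 from 904 and 822. Both receptors are endosomal RNA sensors, and both were called without each of the 4 day 1 libraries in turn. Leaving out day 1 libraries cannot test the single day 5 library on which both rises rest. The low-mRNA vehicle library of day 5 lay below both day 1 libraries, at 266 for Tlr7 and 326 for Tlr13.

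Among surface receptors, Tlr2 rose by 0.69 (SE 0.0825, limma adjusted p = 0.0048), to 2028 normalized counts from 1294 and 1225, with its partners Tlr1 and Tlr6 rising by 0.71 and 0.68 (limma adjusted p = 0.0256 and 0.0332). Tlr1 went from 111 and 102 to 175, and Tlr6 from 133 and 114.0 to 197. Tlr4 rose by 0.32 (SE 0.0591, limma adjusted p = 0.0164), to 1435 from 1159.5 and 1141, and its partner Ly96 rose by 0.61 (limma adjusted p = 0.0458), to 111. The day 5 library with number 1 lay above both day 1 libraries for each of these 5 genes, and the low-mRNA library of day 5 lay below both, at 143 for Tlr2, 24.0 for Tlr1, 5.65 for Tlr6, 79.1 for Tlr4 and 48.0 for Ly96. Cd180 fell by 0.22 (SE 0.0585, limma adjusted p = 0.0419), to 1331 from 1597 and 1512. Cd14 was back near its day 1 level, at 6795, a difference of -0.08 (limma adjusted p = 0.619), after the fall at day 3. Tlr9 stood at 136, a difference of 0.56 that did not pass (limma adjusted p = 0.153).

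How many members passed at day 5 rests on the day 1 libraries and on the low-mRNA libraries. Only Tlr7 and Tlr13 were called without vehicle day 1 replicate 1 or without vehicle day 1 replicate 2, and Tlr2, Tlr4, Tlr7 and Tlr13 without either treated day 1 library, while 0 members were called with all 12 libraries and a term for library kind (1 at an unadjusted p under 0.05, and 1 by limma-voom, Tlr7). That fit called 2.93% of all genes. Each fit without 1 of the day 1 libraries left 1 residual degree of freedom and called fewer of all genes than the 8-library fit. In the treated arm the library with number 1 at day 5 was above the day 1 mean for 9 of the 10 genes, from 0.23 for Tlr1 to 1.26 for Tlr7, and below it for Cd180 at -0.14.

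Macrophage markers moved with the receptors at day 5, and the counts in lists that follow stand beside 14.4% of all genes called higher and 15.0% lower. All 10 of them rose in vehicle cells, with a median of 0.97, and their summed normalized count was 139042 in vehicle day 1 replicate 1, 87315 at day 3 and 339209 at day 5. Lyz2 alone held 104639, 47777 and 284656 of these replicate 1 sums. At day 3 the macrophage markers' median difference was 0.042, beside 0.037 over all genes tested, with Lyz2 at -1.06. Osteoclast markers summed to 2703 in vehicle day 5 replicate 1. Mmp9, Atp6v0d2 and Ctsk rose by 2.07, 1.44 and 0.81 there, and Ocstamp and Dcstamp fell by 1.88 and 0.84. Each of the 9 listed osteoclast markers was higher in the low-mRNA vehicle library of day 5, with Ctsk at 6680 against 299 and Acp5 at 1231 against 35.9. The part of these markers in the rise of the receptors was not tested. Tlr8, a relative of Tlr7, rose by 0.82 at day 3 (limma adjusted p = 0.0354) and by 2.88 at day 5 (limma adjusted p = 0.00121). Of the receptor partners, 9 of 13 rose and 1 fell at day 5, among them the protease genes Ctss by 1.19, Ctsb by 1.06 and Lgmn by 0.67. Adaptors rose in 5 of 23 and fell in 1, with Ikbke at 2.03 and Irak2 at 0.76, and 4 of 11 brakes rose, with Inpp5d at 0.31, Cyld at 0.31 and Tnip1 at 0.44. Of the response list 2 rose and 4 fell.

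**Figure D4:**
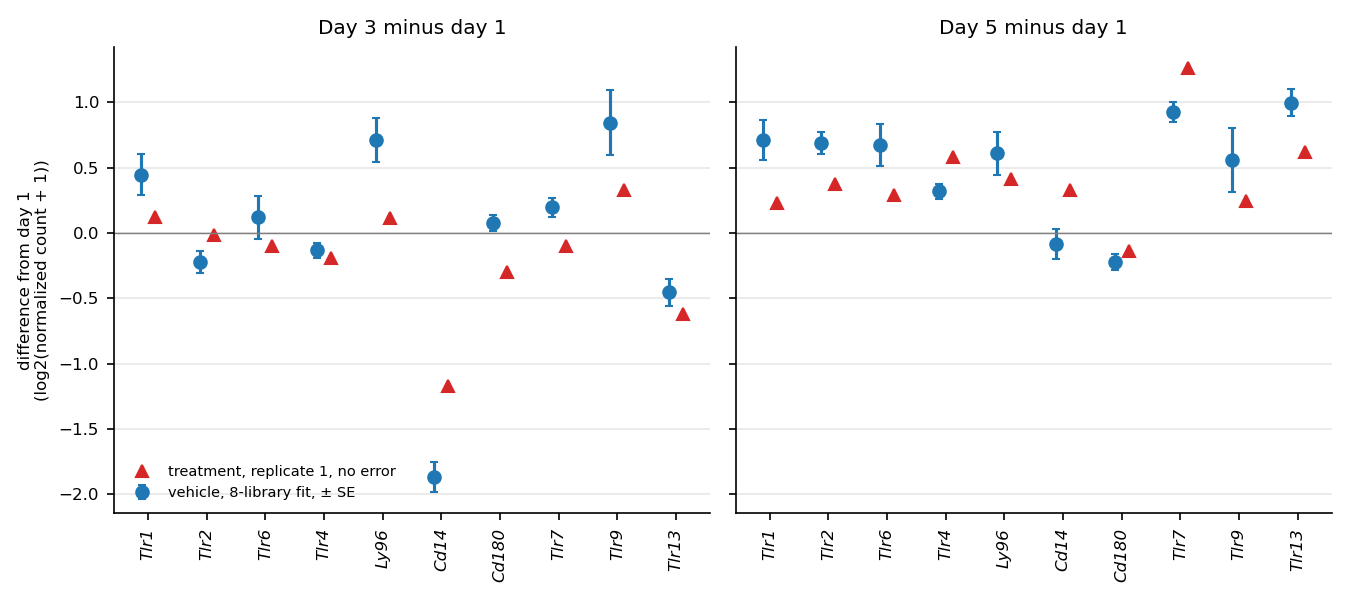
Difference of day 3 (left) and day 5 (right) from day 1 for each gene on the log2(normalized count + 1) scale. Circles are vehicle in the 8-library fit with SE and triangles the single treated library with number 1; Cd14 lies at -1.87 at day 3 and -0.08 at day 5 in vehicle, and Tlr13 and Tlr7 lie highest at day 5 in vehicle.

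Sequences upstream of the start are shown for Tlr2, Tlr6 and Tlr13, which rose by day 5, and for Tlr9, to show which motifs of macrophage and pathway factors they hold. They are the 250 bases before the annotated start from RefSeq on GRCm38.p6, a later build than the mm9 of the deposited values, printed 5′ to 3′ on the gene's strand with motif matches in capitals. Tlr2 lies at chr3:83841609-83841858 on the minus strand, Tlr6 at chr5:64959167-64959416 on the minus strand, Tlr13 at chrX:106143025-106143274 on the plus strand and Tlr9 at chr9:106222348-106222597 on the plus strand.
Tlr2: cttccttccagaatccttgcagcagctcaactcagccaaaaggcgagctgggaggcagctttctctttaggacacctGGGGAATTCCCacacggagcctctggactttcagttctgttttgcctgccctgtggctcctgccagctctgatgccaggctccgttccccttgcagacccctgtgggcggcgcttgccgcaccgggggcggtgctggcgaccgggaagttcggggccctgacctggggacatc
Tlr6: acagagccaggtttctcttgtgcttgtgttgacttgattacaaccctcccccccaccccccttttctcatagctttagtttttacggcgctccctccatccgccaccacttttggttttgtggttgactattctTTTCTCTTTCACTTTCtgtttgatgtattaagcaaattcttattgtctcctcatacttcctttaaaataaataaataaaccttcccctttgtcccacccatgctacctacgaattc
Tlr13: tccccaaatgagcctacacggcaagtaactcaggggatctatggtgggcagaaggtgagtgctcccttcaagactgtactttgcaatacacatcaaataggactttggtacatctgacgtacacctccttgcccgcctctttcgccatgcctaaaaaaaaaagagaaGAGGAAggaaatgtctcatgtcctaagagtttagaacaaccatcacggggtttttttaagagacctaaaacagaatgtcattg
Tlr9: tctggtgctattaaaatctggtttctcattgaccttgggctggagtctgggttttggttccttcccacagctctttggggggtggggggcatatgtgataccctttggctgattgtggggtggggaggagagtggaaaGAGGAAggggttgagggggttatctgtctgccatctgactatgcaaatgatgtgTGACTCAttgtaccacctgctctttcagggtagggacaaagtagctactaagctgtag

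Motifs were searched on both strands, and positions are counted back from the start. Tlr2 held 2 overlapping matches of the kappaB motif, at -173 to -164 and -172 to -163. Any match of this motif was held by 7.3% of all 32851 promoter windows of this length. The first start of Tlr6, whose window is printed, held 2 overlapping matches of the interferon-stimulated response element (ISRE), at -116 to -107 and -110 to -101. Its second start held none of the 4 motifs, and 3.0% of windows held any ISRE match. Tlr13 held the PU.1 core GAGGAA at -83 to -78, and Tlr9 held it at -112 to -107. Windows with this core made up 23.3% of all. Tlr9 also held the AP-1 motif TGANTCA at -58 to -52, which 6.7% of windows held. Tlr1 held GAGGAA at -23 to -18 before its first start. The second start of Tlr1 and both starts of Cd180 held none of the 4 motifs. Upstream sequences of Tlr4, Ly96, Tlr7 and Cd14 were not analysed here. A match is a description of the letters and no measurement of binding.

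The third comparison set the low-mRNA libraries against the others of the same day, in a fit of all 12 libraries with a term for library kind at each day. All 10 genes were lower in low-mRNA libraries at both days and passed in limma, where 82.4% of all genes passed at day 3 (70.6% lower) and 76.8% at day 5 (64.0% lower). With the median of all genes at -1.46 and -1.11 (log2) under the deposited scaling, and -0.48 and -0.16 when scaled to nuclear protein-coding reads, the members are given against that shift. Their medians under the deposited scaling were -3.11 at day 3 and -2.70 at day 5. Malat1, a nuclear RNA, made up 8.15% to 13.97% of the reads of low-mRNA libraries, against 0.218% to 0.489% elsewhere. For mitochondrial genes the shares were 25.7% to 30.6% and 3.64% to 5.97%. The part of this composition in the members' values was not tested.

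Tlr9 was nearly missing from the low-mRNA libraries. It had 0 and 1 reads there at day 3 and 1 and 0 reads at day 5 in vehicle and treated cells, against 213 and 98 reads and 148 and 79 reads in the others. That is 2 of 36438047 reads against 538 of 60169606, a ratio of 0.00614 (exact 95% interval 0.000742 to 0.0223, counting error only). A count of 0 allows up to 3 reads, which is 3.56 to 4.72 normalized counts in these libraries. Tlr6 had 32 reads against 771, a ratio of 0.0685 (0.0465 to 0.0976), and neither interval reached the other.

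The other members spread widely. Tlr4 differed by -4.34 and -3.65 (SE 0.242, limma adjusted p = 2.45e-07 and 5.95e-07), at 39.7 and 58.3 normalized counts at day 3 against 1049 and 939. On the scaling to nuclear protein-coding reads it differed by -3.34 and -2.69, among the lowest 2.8% and 4.7% of genes tested. Tlr1, Tlr2, Tlr7 and Tlr13 lay between -3.32 and -2.39 under the deposited scaling and between -2.38 and -1.44 under the other. Cd14 (-1.82 and -2.41) and Cd180 (-2.06 and -1.99) were less low, and Ly96, at -1.80 and -0.96, lay closest to all genes under the deposited scaling. Without any 1 of the 4 day 5 libraries the call of Ly96 at day 5 was lost (limma adjusted p 0.0554 to 0.221). On the second scaling Ly96 differed by -0.81 and -0.01, where the day 5 value did not pass (limma adjusted p = 0.986). So Ly96 and Tlr4, whose proteins form 1 receptor complex, differed in how low they were, at the 54.2 and 3.4 percentile of all genes at day 5, though the difference between the 2 genes was not tested. Macrophage markers were lower in 9 of 10 at day 3 and 7 of 10 at day 5, and Mertk was higher at day 3. Osteoclast markers were higher in 7 of 8 at day 5. At day 3 they were lower in 5 of 8 and higher in 1, Oscar. Of all genes tested, 70.6% and 64.0% were called lower at days 3 and 5, and 11.8% and 12.7% higher. The part of either list in the members' values was not tested.

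**Figure D5:**
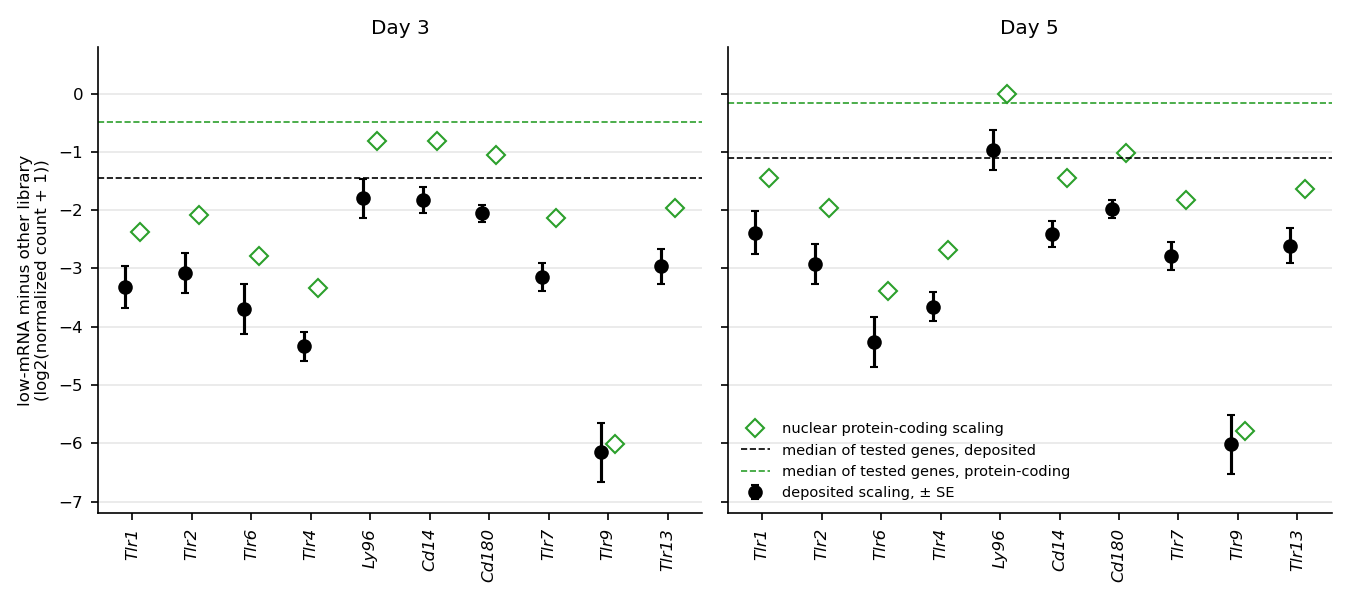
Low-mRNA minus other libraries for each gene at days 3 and 5 (log2). Circles are the deposited scaling with SE, diamonds the scaling to nuclear protein-coding reads, and dashed lines the medians of all genes tested; Tlr9 lies lowest at -6.15 and -6.01, and Ly96 nearest to the line of the deposited scaling at both days.

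Across the 8 libraries, members moved with each other to different degrees. Pearson's r between log2(normalized count + 1) values was 0.92 for Tlr2 with Tlr13, 0.91 for Tlr4 with Tlr7 and 0.90 for Tlr2 with Tlr6, while Cd14 and Tlr9 had -0.68. These are descriptions over 8 libraries that share days, arms and depth. Likeness was measured over 11248 genes whose mean reached 50 normalized counts. Those most like Tlr13 were Tifa (r = 0.997) and Plxdc1 (r = 0.996), and those most like Tlr7 were Mcfd2 (0.99) and Trim21 (0.987). Cd14 was nearest to Rbpj-ps3 (0.993) and Zfp516 (0.99), Tlr2 to Flot2 (0.988) and H2-Q1 (0.983), and Tlr4 to Orai1 (0.987) and Rabep2 (0.986). Tlr1 was nearest to Dirc2 (0.992), Tlr6 to Sugp2 (0.982), Ly96 to Sgpl1 (0.978), Cd180 to Spire1 (0.957) and Tlr9 to Pcca (0.955).

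As a share of all reads, the 10 genes together held 1027 to 1164 RPM (reads scaled to library depth) in vehicle libraries at day 1 and 1219 to 1288 in treated ones. In the libraries with number 1 they held 658 in vehicle and 787 in treated cells at day 3 and 1319 and 1674 at day 5, and in the low-mRNA libraries 88.2 and 198, then 178 and 367. The sum was higher in the treated library in all 6 pairs, as was Cd14 by itself. In the day 3 libraries with number 1, Cd14 held 155 RPM in vehicle and 299 in treated cells, a larger rise than that of the sum. In that pair 6 of the 10 members were lower in the treated library. The low-mRNA pairs also carry the shift of all genes given above. Cd14 supplied 10366 of 19531 of these reads in vehicle day 1 replicate 1 and 2525 of 10696 in vehicle day 3 replicate 1, so its weight in the sum varied between libraries.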

How the data were processed

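RNA had been sequenced from 12 libraries (TruSeq, total RNA). TopHat2, SAMtools, DESeq2 and build mm9 are named in the submitters' processing notes, and the sources used here give no version, annotation or counting step. The authors deposited 1 table of log2 values, per the file headers, with a lowest value of 3. From the values, each is log2 of a normalized count plus 8. With that offset removed, 100% of values were whole reads within 0.02, and the normalized totals of the libraries were equal to within 6.5e-07 percent, so the deposited scaling is by total reads. Of 24757 rows, 993 repeats with equal values were dropped, which left 23764 identifiers; 23315 were named from the reference.

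Groups and replicate numbers came from the titles. A gene was tested if its mean reached 10 normalized counts in 1 or more of the 6 groups (14715, all 10 members included). limma 3.58.1 in R 4.3.3, with a trended prior, was fitted to log2(normalized count + 1) over the 8 libraries with over 60% nuclear protein-coding reads, with 1 mean per group (2 residual degrees of freedom). The low-mRNA comparisons used 12 libraries with a term for library kind by day (4 residual degrees of freedom). P-values were adjusted by Benjamini-Hochberg over all genes tested, at 0.05, and the model was tested on simulated data. Differences of genes with few reads are understated on this scale. A count test on recovered reads was replaced by limma-voom because the deposited unit is log2.

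The members and lists were chosen with earlier results of these data known. Named were the 10 members, of each list up to 4 genes with the smallest p or all called ones, and for each member the genes of highest Pearson r. Markers outside that rule were chosen after their values were seen. Scaling to nuclear protein-coding reads and limma-voom on 12 libraries with the term were added after seeing the data. Tables were made with pandas 2.3.3 and numpy 2.4.6 in Python 3.11.15, figures with matplotlib 3.10.9.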

Additional observations from a re-analysis of the deposited data

How the results depend on the processing

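At days 3 and 5 the main values rest on 1 library per arm, and the spread is that of day 1. When any 1 of the 4 day 1 libraries is left out, 1 residual degree of freedom remains. No gene of all tested was then called for treatment at any day or for the difference between days. Leaving out 1 library gave 0 members for treatment at day 1 and day 3, 0 to 1 at day 5, 0 to 3 for vehicle day 3 against day 1, 2 to 8 for day 5 and 0 for the difference between days. It gave 10 for low-mRNA libraries at day 3 and 9 at day 5, in every case without Ly96 at day 5; leaving out the lone library of a group gives no value for that day. With all 12 libraries, no term and no block, or with a replicate block, 0 members were called in each of the first 6 comparisons, and with the term for library kind 0, 0, 0, 1, 0 and 0. Over 8 libraries limma-voom gave 3 at treatment day 1. It called more members than limma in each of these 6 comparisons, and more of all genes too. Over 12 libraries with the term it gave 0, 1, 1, 1, 1 and 0, where 86, 46, 289, 791, 1137 and 0 of the 14715 genes tested were called. Without the filter the counts at treatment day 5 and for vehicle day 3 and day 5 were 0, 1 and 1. For treatment at day 5, quantile normalization and pseudocount 0.5 gave 0, and pseudocount 5 and the deposited log2 values gave 2. With 12 libraries (no term, block or term alike), the treatment difference changed sign at day 3 for Tlr1 0.75, Tlr4 0.19, Ly96 0.43, Tlr7 0.41 and Tlr9 0.13, and at day 5 for Tlr1 0.21, Tlr2 0.69, Tlr6 0.56 and Tlr13 0.45. Without the term, and equally with the block, vehicle day 3 against day 1 changed sign for Tlr1 -1.62, Tlr6 -2.20, Ly96 -0.58, Cd180 -0.98, Tlr7 -1.67 and Tlr9 -2.85, and day 5 for Tlr1 -0.69, Tlr2 -1.22, Tlr6 -1.77, Tlr4 -1.76, Tlr7 -0.39, Tlr9 -2.36 and Tlr13 -0.58. With the term, Tlr6 -0.35 and Tlr7 -0.10 did so at day 3. With limma-voom over 12 libraries these were Tlr1 0.14 and Tlr7 0.15 for treatment at day 3, Tlr2 0.48, Tlr6 0.0601 and Tlr13 0.37 at day 5 and Tlr6 -0.00434 for vehicle at day 3. Under quantile normalization, Tlr6 0.0383 (treatment day 5), Cd14 0.0373 (vehicle day 5) and Ly96 0.0689 (low-mRNA day 5) changed sign, as did Cd14 0.0385 (vehicle day 5) without vehicle day 1 replicate 1, in a leave-one-out range of -0.21 to 0.04. The cause of these changes was not tested. Same-numbered libraries deviated together at days 3 and 5 (r = 0.899 and 0.897), where number and library kind coincide, and not at day 1 (r = 0.07), so the replicate block is not taken as a pairing. Of the values and calls for single members, 1082 kept direction and side of the threshold, 85 lost the call, 18 gained it and 65 changed sign.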
